A study of Mus musculus with 4 samples.

Results

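Molecular chaperones of the cytosol and of mitochondria were examined at postnatal day 6 in Celf1 conditional knockout (Celf1 cKO) and Control mouse lenses. Some members act in the endoplasmic reticulum or the nucleus. The members were the probes whose symbol in the normalized table belongs to the HSP70 and HSP110 family (Hspa genes other than Hspa5, and Hsph1), HSP90 (Hsp90a genes), the mitochondrial chaperonin (Hspd1 and Hspe1), the J proteins (Dnaja, Dnajb and Dnajc genes), the BAG family or the cytosolic chaperonin TRiC (Cct2 to Cct8 and Tcp1). The rule matched 125 probes with 70 symbols. Of these, 75 probes were above background (detection p-value under 0.05) on at least 2 of the 4 arrays, and they gave 51 chaperone genes of 11516 genes tested. The other 19 symbols had no such probe. Hsph1 carries an older name in the files and is therefore given as a gene outside the rule.

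Chaperones bind unfolded protein and keep it from aggregating. HSP70 proteins do so in cycles of ATP hydrolysis that J proteins start and that nucleotide exchange factors, such as BAG and HSP110 proteins, end. HSP90 takes clients over from HSP70 with the help of cochaperones, and the chaperonins TRiC and Hspd1/Hspe1 enclose a protein in a ring-shaped chamber while it folds. Lens fiber cells lose their nuclei and organelles and keep their crystallins for life, so that soluble protein must be held in solution with little renewal, and aggregated protein is a feature of cataract.

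CELF1 is an RNA-binding protein that acts on the splicing, decay and translation of its target mRNAs. The Celf1 cKO lenses (n = 2, replicates A and B) came from mice with a germline lacZ knock-in allele that is a null allele, an allele with loxP sites around an exon, and the Pax6GFPCre transgene, which is expressed in the lens and pancreatic lineages. The Control lenses (n = 2, replicates A and B) came from Celf1lacZKI/+ mice, so that both groups carried the lacZ knock-in allele. Whether the Control mice carried Cre is not given in the sources used here. All mice were of a mixed C57BL/6 and FVB background, and each sample was the RNA of 1 whole lens. Celf1 itself was reduced, at log2 signals of 7.45 and 6.95 in cKO A and B against 8.71 and 8.55 in Control A and B (log2 fold change -1.43 ± 0.19, SE, limma adjusted p = 0.00978). Whole lenses mix epithelial and fiber cells, and fewer cells of a type cannot be told apart from less RNA per cell.

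All 9 lens markers of the list were tested and had negative log2 fold changes with the scaling used here, with a median of -0.22. In 6 (66.7%, near the 62.3% of all genes) the groups did not overlap. Several lie at the top of the signal range, where quantile normalization sets the value by rank. Crybb1 had 15.23 in both cKO A and Control A (log2 fold change -0.05), and Mip had 14.75 in cKO A and both Control lenses (-0.07). Such small values do not show a lower level. Of the 9, 2 were called (22.2%, against 11.6% of all genes), both reduced: Birc7 (-1.45) and Bfsp2 (-0.76), a beaded filament protein of fiber cells. The 5 retina and 4 muscle markers were above background on at most 1 array. Markers of other tissues were detected: 2 of 4 blood, 4 of 4 vessel and 1 of 4 pigment markers were tested, and 0 were called. Hba-a1 of blood had log2 signals of 8.88 and 7.62 in cKO A and B against 8.52 and 8.14 in Control A and B. The vessel markers ran from -0.59 (Kdr) to 0.58 (Cdh5), with 1 higher and 3 lower. The cKO arrays were the brighter ones, with 16261 and 16925 probes detected against 14542 and 14180. The median bead standard error of the member probes was 5.45% of the signal on both cKO arrays, 7.27% on Control A and 12.1% on Control B, and leaving out Control B ended the calls of all 5 chaperone genes described below. In that fit, which left 1 Control lens, the log2 fold change was -1.46 for Dnajb2 and 0.57 for Dnajb1, against -1.47 and 0.67 with all arrays. Calls among all genes also fell in it. Xist RNA was detected in the cKO lenses alone, so that genotype and sex cannot be told apart. Of 5 macrophage markers, 3 were tested. Cd68 and C1qb were above background on the cKO arrays alone, and passed the detection filter only through them, while Csf1r, above background on all arrays, had -0.11 and was not called. The summed signal of the 3, which includes these undetected Control signals, was 95.9 and 95.5 in cKO lenses against 71.7 and 73.0 in Control lenses, while C1qa and Lyz2 were above background on 1 array at most. The part of array brightness, sex, lens markers or the RNA of macrophages, blood, vessels or pigment cells in the differences below was not tested.

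The probes that measured the 5 called chaperone genes are shown by their first 30 of 50 bases, because each of these genes rests on 1 or 2 such oligonucleotides. They are given 5′ to 3′ as the files hold them, with positions for which the files name no genome build. Capitals mark the bases past a junction between separate genomic blocks.
Dnajb1, chr8:86135672-86135721, plus strand: gggcgtgaaagtatctgttctttggagcta
Dnajb2, chr1:75242154-75242203, plus strand: ggagcaggctatggccggcctctgttaaca
Dnajb9, chr12:45306951-45307000, minus strand: ctgcacttttccatgttatactccatacga
Dnajb9, chr12:45076423-45076472, minus strand: tggtgtgtgtttgtgtgtagtcactctttt
Dnajc12, chr10:62871105-62871154, plus strand: aaatgttgtgtttgtgagttactcagaatg
Dnajc12, chr10:62849507-62849523 and chr10:62858533-62858565, plus strand: gcgatgagctctcctcgGTTGAGCAAATCT
Dnajc27, chr12:4108743-4108792, plus strand: caaccacatgggcaggagagcagttacagc
Dnajc27, chr12:4110053-4110102, plus strand: ttccaggtcagctcagtaggttctctcatg

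Few chaperone genes were called, in a share near that of all genes, and the called ones were J proteins, which make up most of the genes tested (2 DNAJA, 8 DNAJB and 19 DNAJC genes of 51). A gene was called at a limma adjusted p under 0.05 over all genes, where its log2 fold change exceeded 0.58 in size and its mean log2 signal exceeded 4.6. Of the 51 chaperone genes, 5 were called (9.80%), against 11.6% of all genes. The elevated genes were Dnajc12, Dnajb9 and Dnajb1, where 6.01% of all genes were called elevated, and the reduced genes were Dnajb2 and Dnajc27, where 5.64% were called reduced. The median log2 fold change of the chaperone genes was -0.02, against 0.010 for all genes, and 23 genes had a positive value and 28 a negative one. In 33 of the 51 genes (64.7%) the cKO and Control values did not overlap, which was also the case in 62.3% of all genes. Both shares lay near those of all genes. The direction depended on the scaling: with the same median set for each array, the median of all genes moved to 0.53 and 97.3% of all calls were elevated, against 692 of 1341 here, and 25 of 26 called chaperone genes were elevated.

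**Figure D1:**
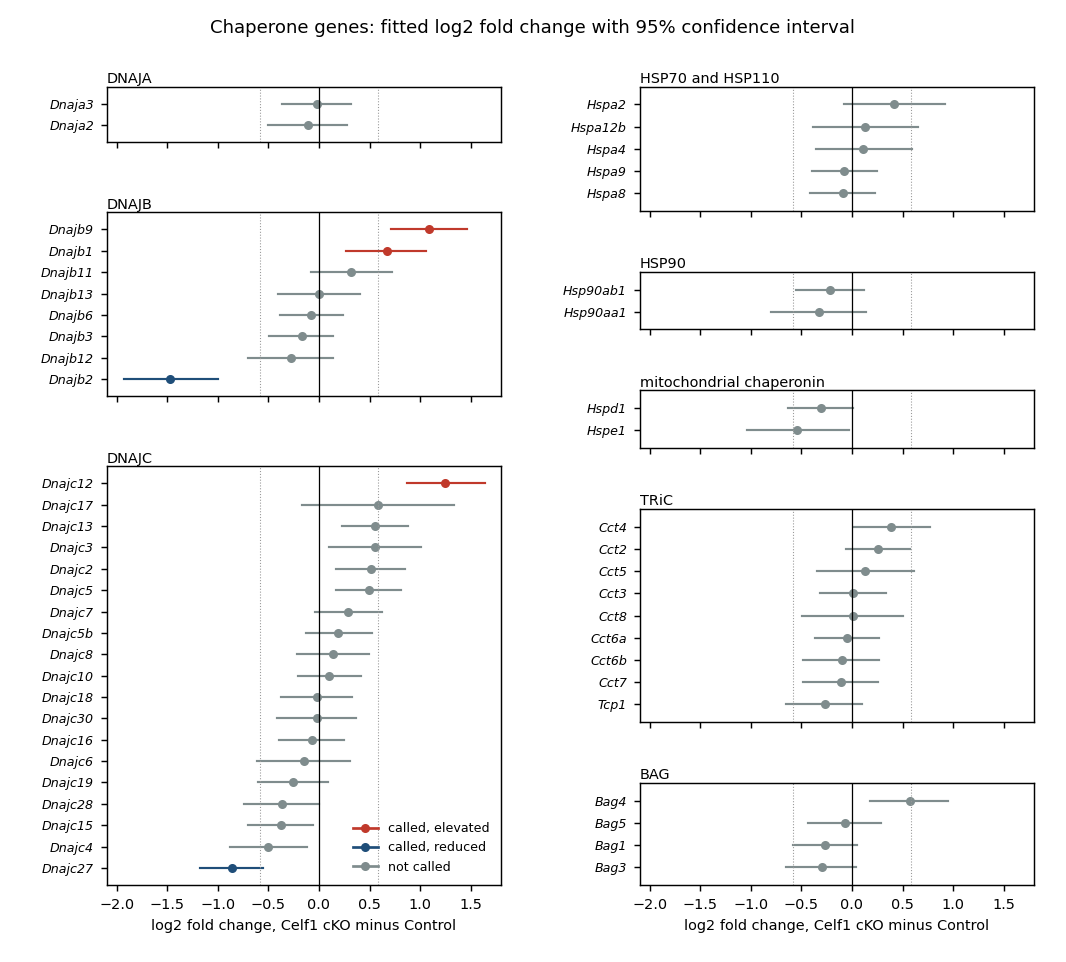
Fitted log2 fold change (Celf1 cKO minus Control) of each of the 51 chaperone genes by family. Points are estimates from 2 arrays per group, bars are 95% confidence intervals and dotted lines mark the fold threshold of 0.58. The 5 coloured genes, which are all DNAJB or DNAJC genes, were called.

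Dnajb1 encodes the main heat-inducible J protein of the cytosol, which hands clients to Hspa8 and its inducible relatives. Its log2 signal was 12.77 in cKO A and 13.12 in cKO B against 12.34 in Control A and 12.21 in Control B. Both cKO lenses lay above both Control lenses. The gene was elevated 1.59-fold (log2 fold change 0.67 ± 0.17, SE, limma adjusted p = 0.0462). This was the called member nearest to the threshold, and the call was lost without any one of the samples, at adjusted p = 0.0600 (cKO A left out), 0.268 (cKO B), 0.0726 (Control A) and 0.160 (Control B). In the deposited normalized table with 16 added the log2 fold change was 0.37 (adjusted p = 0.199), and the call was also lost with cyclic loess (adjusted p = 0.0603) and without a detection filter (0.121).

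Dnajb2 encodes a J protein with ubiquitin-binding motifs, known from neurons, that passes clients to the proteasome. It had the log2 signals 9.88 in cKO A and 9.35 in cKO B, against 11.09 and 11.07 in Control A and B. The reduction was 2.76-fold (log2 fold change -1.47 ± 0.20, SE, limma adjusted p = 0.00937), with the cKO values further apart (SD 0.38) than the Control values (SD 0.01). The unnormalized intensity of its probe was also lower in the brighter cKO arrays, at 1251.7 and 950.1 against 1905.1 and 1462.1. It was called under 15 of the 18 alternatives, against 8 of 18 for Dnajb1, 13 of 17 for Dnajb9 and for Dnajc12, and 10 of 17 for Dnajc27. These alternatives are not independent. Dropping the fold threshold cannot lose a call, and scaling by a median differs from no scaling only by a constant per array. For Dnajb1 and Dnajb2, with a single probe each, the brightest-probe and single-probe fits repeat the same log2 fold change. Without Control B the log2 fold change of Dnajb2 was -1.46.

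Dnajb9 encodes ERdj4, a J protein of the endoplasmic reticulum lumen that assists the removal of misfolded proteins and is known as a target of the unfolded protein response. Averaged over its probes, the log2 signal was 6.57 and 6.87 in cKO A and B, and 5.68 and 5.58 in Control A and B. It was elevated 2.12-fold (log2 fold change 1.09 ± 0.16, SE, limma adjusted p = 0.0118), and both probes were called when fitted singly, where 11.5% of all probes were called. The probe at 45306951 gave 0.68 ± 0.17 on the log2 scale (SE, limma adjusted p = 0.0458) and the probe at 45076423 gave 1.49 ± 0.23 (SE, adjusted p = 0.0112). The positions lie 231 kb apart as deposited. No genome build is named for them, so that this distance cannot show whether the probes report the same transcript. Without cKO B the adjusted p of the gene was 0.0944, and without Control B it was 0.0615.

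Dnajc12 encodes a J protein known as the partner of HSP70 for the aromatic amino acid hydroxylases. Its log2 signal was 6.43 in cKO A and 6.78 in cKO B against 5.35 in Control A and 5.36 in Control B. The elevation was 2.39-fold (log2 fold change 1.25 ± 0.16, SE, limma adjusted p = 0.00895). The probe within a single block, above background on all 4 arrays, gave 1.46 ± 0.16 (SE). The probe across the junction, shown above, gave 1.05 ± 0.20 (SE), with Control signals at the limit of detection (detection p-values 0.0513 and 0.0459). A further Dnajc12 probe was detected on 0 arrays. The adjusted p was 0.0666 without cKO B and 0.0560 without Control B.

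Dnajc27 encodes a protein that joins a Rab-like GTPase domain to a J domain. Both cKO lenses were below both Control lenses, with log2 signals of 5.37 and 5.41 in cKO A and B and of 6.24 and 6.26 in Control A and B. It was reduced 1.82-fold (log2 fold change -0.86 ± 0.13, SE, limma adjusted p = 0.0139), and the probes gave -0.69 and -1.04. Without cKO A, cKO B and Control B the adjusted p was 0.0687, 0.105 and 0.0593. With the same median set for each array, the value was -0.34 and the call was lost (adjusted p = 0.167), while relative to the median of all genes, which moved with that scaling, the value was -0.87.

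**Figure D2:**
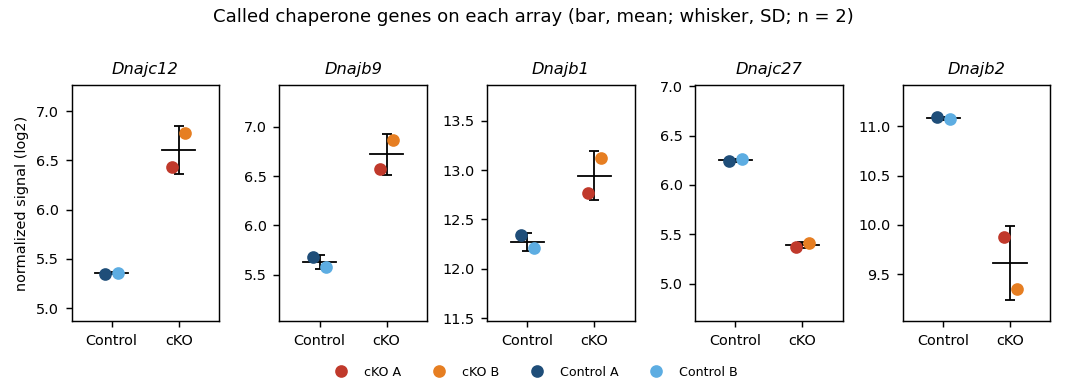
Normalized log2 signal of the 5 called chaperone genes on each array, with colours for the 4 samples, bars for group means and whiskers for the SD (n = 2). Each panel spans the same log2 range around its own middle, and in each of the 5 genes the cKO points lie apart from the Control points.

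The remaining J proteins spread around 0. In the DNAJB family 8 of 13 genes were tested and 3 were called (37.5%, against 11.6% of all genes), with values from -0.28 to 0.32 for the others. Dnajb11, a J protein of the endoplasmic reticulum, had a log2 fold change of 0.32 (95% confidence interval -0.08 to 0.72), and Dnajb12, which is anchored in the membrane of that organelle, had -0.28 (-0.70 to 0.14). In the DNAJA family 2 of 3 genes were tested. Dnaja2, a cytosolic partner of Hspa8, had -0.11 (-0.50 to 0.28), and the mitochondrial Dnaja3 had -0.02 (-0.37 to 0.32), with single probes at 0.22 and -0.27. Dnaja1 had a probe above background in cKO A alone and was not tested.

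In the DNAJC family 19 of 24 genes were tested and 2 were called (10.5%, against 11.6% of all genes). The values of the other 17 ran from -0.50 to 0.58, and 14 of the 19 (73.7%) had groups that did not overlap, against 62.3% of all genes. Dnajc17, a nuclear J protein linked to splicing, had log2 signals of 5.44 and 5.49 in cKO A and B, 5.42 in Control A and 4.35 in Control B. Only Control B stood apart, where the probe was not above background (detection p-value 0.366). The log2 fold change of 0.58 had a wide interval (-0.17 to 1.34, adjusted p = 0.257), and the call made without Control A (adjusted p = 0.0218) rests on that undetected signal alone. Dnajc3, the P58IPK protein that inhibits the kinase PERK, had log2 signals of 8.12 and 8.15 in cKO lenses against 7.84 and 7.32 in Control A and B. Its log2 fold change was 0.55 (0.10 to 1.01, adjusted p = 0.103), and 0.81 without Control A (adjusted p = 0.0353), again with Control B alone. Dnajc13, an endosomal J protein picked out after its values were seen, passed the adjusted p (0.0462) but not the fold threshold, at 0.55 ± 0.14 (SE).

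Some further members were chosen for description after their values were seen. Dnajc5, the cysteine string protein that acts with Hspa8 in secretion, had log2 signals of 10.05 and 10.07 in cKO A and B against 9.61 and 9.53 in Control A and B. Its log2 fold change was 0.49 (95% confidence interval 0.17 to 0.81, limma adjusted p = 0.0572). Dnajc2, which works on nascent chains at the ribosome, had 6.77 and 6.94 in cKO lenses against 6.39 and 6.30 in Control lenses, or 0.51 (0.17 to 0.85, adjusted p = 0.0594). In both genes the groups were apart, and neither passed the test. Dnajc6 (auxilin), which uncoats clathrin vesicles with Hspa8, overlapped between the groups and had -0.15 (-0.61 to 0.31). Dnajc5b was above background only in the cKO lenses, and its fold is not given because the bound was under 1.

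The probes of a gene did not always give the same direction. Of the 20 chaperone genes with more than 1 retained probe among those matched by the rule, 14 had probes of the same sign. In Dnajc19, a subunit of the mitochondrial import motor, the probes gave -0.75, -0.33 and 0.32, and the lowest was called reduced on its own (adjusted p = 0.0259) while the gene was not (-0.26, adjusted p = 0.279). Dnajb6, a suppressor of protein aggregation added like Dnajc19 after its values were seen, ranged from -0.36 to 0.19 over its 3 probes.

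HSP70 proteins bind short hydrophobic stretches of a client and are the hub of the network. Hspa8, the constitutive HSC70, had log2 signals of 11.14 and 11.24 in cKO A and B against 11.33 and 11.24 in Control A and B. The groups overlapped, and its log2 fold change was -0.09 (95% confidence interval -0.42 to 0.23). The heat-inducible Hspa1a and Hspa1b were near background, with 1 of 3 and 1 of 2 probes above it in cKO B alone, and were not tested. Hspa2, a member best known from testis, had log2 signals of 7.01 and 7.62 in cKO A and B against 6.95 and 6.84 in Control A and B, and a log2 fold change of 0.42 (-0.08 to 0.92). Hspa12b, a distant relative known from endothelium, had 0.13 (-0.39 to 0.65). In all, 5 of 12 genes of the family were tested and 0 were called by limma, and 0 had an unadjusted p under 0.05. The family median was 0.11, with values from -0.09 to 0.42. Hsph1, which exchanges the nucleotide of HSP70, had log2 signals of 7.70 and 7.99 in cKO lenses and 7.70 and 8.10 in Control lenses (log2 fold change -0.06, -0.50 to 0.38).

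The HSP90 genes were measured by 5 retained probes. Hsp90ab1, the constitutive form, had log2 signals of 11.11 and 10.94 in cKO A and B against 11.28 and 11.20 in Control A and B. Both cKO values lay below both Control values, and the log2 fold change was -0.22 (95% confidence interval -0.55 to 0.12, limma adjusted p = 0.340). The inducible Hsp90aa1 overlapped between the groups and had -0.33 (-0.80 to 0.14, adjusted p = 0.299). All 5 probes of both genes had negative values, from -0.51 to -0.13, although 2 of the Hsp90ab1 probes overlap in position and are not separate readings of the gene. Neither gene passed the test, both intervals include 0, and both values turned positive with the same median set for each array (0.48 for Hsp90ab1 and 0.18 for Hsp90aa1), a scaling that moved the median of all genes to 0.53, relative to which they were -0.05 and -0.35.

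**Figure D3:**
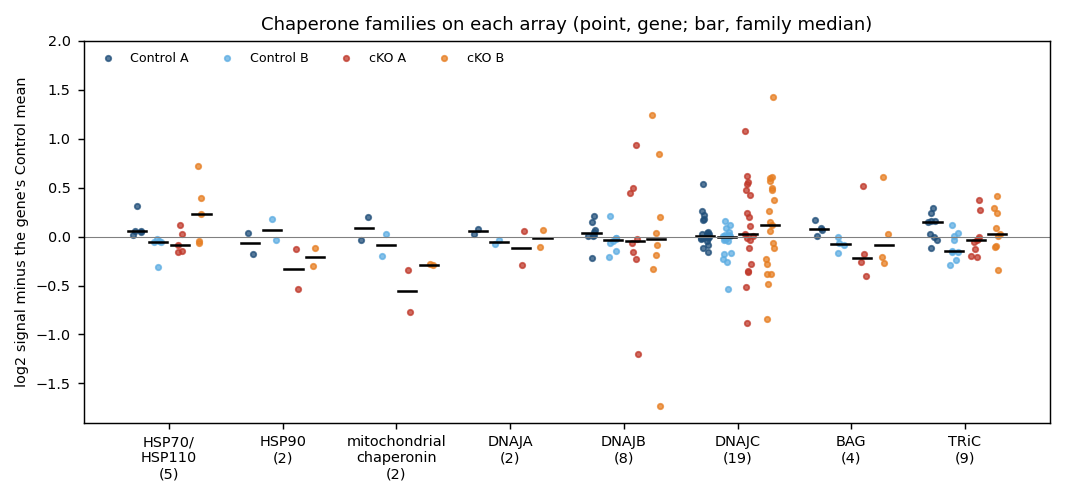
Log2 signal of each chaperone gene on each array, as the difference from its mean in the Control lenses, by family (number of genes in brackets). Points are genes and black bars are family medians. The medians of both cKO arrays lie below those of both Control arrays in HSP90, in the mitochondrial chaperonin and in the BAG family. In the BAG family cKO B (-0.09) and Control B (-0.08) nearly coincide. The medians of the DNAJB, DNAJC and TRiC families stay within 0.15 of 0.

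Hspd1 (HSP60) and its lid Hspe1 (HSP10) form the chaperonin of the mitochondrial matrix, and the genes lie head to head. Hspe1 had log2 signals of 7.10 and 7.58 in cKO A and B against 8.07 and 7.68 in Control A and B. The log2 fold change was -0.54 (95% confidence interval -1.04 to -0.03, limma adjusted p = 0.140). Hspd1 had 8.21 and 8.27 in cKO lenses against 8.52 and 8.58 in Control lenses, and a log2 fold change of -0.31 (-0.63 to 0.01, adjusted p = 0.170). In both genes each cKO value lay below each Control value. The pair was not called, and its median of -0.43 relative to all genes was -0.15 when each array was given the same median.

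The members that act in mitochondria had negative values with the scaling used here. Of the 10 genes placed in that compartment, 9 were tested, all 9 had a negative log2 fold change and 0 were called by limma, with 3 at an unadjusted p under 0.05. Their median was -0.31, against 0.010 for all genes, of which 48.9% were negative. The values ran from -0.54 in Hspe1 to -0.02 in Dnajc30, and in 7 of the 9 genes (77.8%) both cKO values lay below both Control values, where the groups of 62.3% of all genes did not overlap in either direction. Relative to all genes, 7 of the 9 lay below the median with the same median set for each array, with Hspe1 at -0.27, Dnaja3 at -0.05, Hspd1 at -0.03 and Hspa9 at 0.19, while before the shift of all genes was taken off these 4 values were positive. The number below the median of all genes was also 7 without cKO B or without Control A. It was 8 in both versions of the deposited normalized table, with detection on all 4 arrays and with the brightest probe. Of 15 probes fitted singly, 12 lay below it. Dnajc4, Dnajc15, Dnajc19, Dnajc28 and Dnajc30 were named after their values were seen. Dnajc4 had log2 signals of 6.80 and 6.84 in cKO A and B against 7.49 and 7.15 in Control A and B, and differed by -0.50 ± 0.16 (SE, limma adjusted p = 0.0861). Dnajc15, which regulates the respiratory chain and protein import, had 10.04 and 10.02 against 10.43 and 10.38, or -0.38 ± 0.13 (SE, limma adjusted p = 0.106). Dnajc28 had -0.37 and Dnajc19 -0.26. Hspa9 (mortalin), the HSP70 of the matrix that drives import, had 10.64 and 10.66 in cKO lenses against 10.78 and 10.67 in Control lenses, a log2 fold change of -0.08 (95% confidence interval -0.40 to 0.25). The median of the 9 genes stayed below that of all genes under each alternative, from -0.40 to -0.10, and it was nearest to 0 under the alternatives that scaled the arrays by a median or not at all. Mitochondrial genes of the cochaperone list, named after their values were seen, lay on both sides of 0 and were not called. The log2 fold change was 0.75 in Grpel2, which was above background on 1 Control array, and 0.12 in Grpel1, both exchange factors of Hspa9. It was 0.40 in the protease Lonp1 and 0.21 in the protease Clpp. It was -0.59 in Trap1, the mitochondrial HSP90, -0.34 in Clpx and -0.22 in Clpb.

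Some J proteins act in the endoplasmic reticulum. Of 8 chaperone genes placed there, 5 were tested, 4 had a positive value and 1, Dnajb9, was called (20.0%, against 11.6% of all genes). Their median was 0.32, against 0.010 for all genes, of which 48.9% were negative, and in all 5 the groups did not overlap, as in 62.3% of all genes. Beside Dnajb9, Dnajb11, Dnajb12 and Dnajc3 given above, Dnajc10, a J protein that reduces disulfide bonds and was added after its values were seen, had log2 signals of 8.18 and 8.19 in cKO lenses against 8.08 and 8.07 in Control lenses, or 0.10 (-0.21 to 0.42). Hspa13 and Dnajb14 were detected on 0 arrays and Dnajc1 on 1, and Hspa5, the HSP70 of this organelle, is outside the rule. The difference between mitochondrial and endoplasmic reticulum members was not tested.

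**Figure D4:**
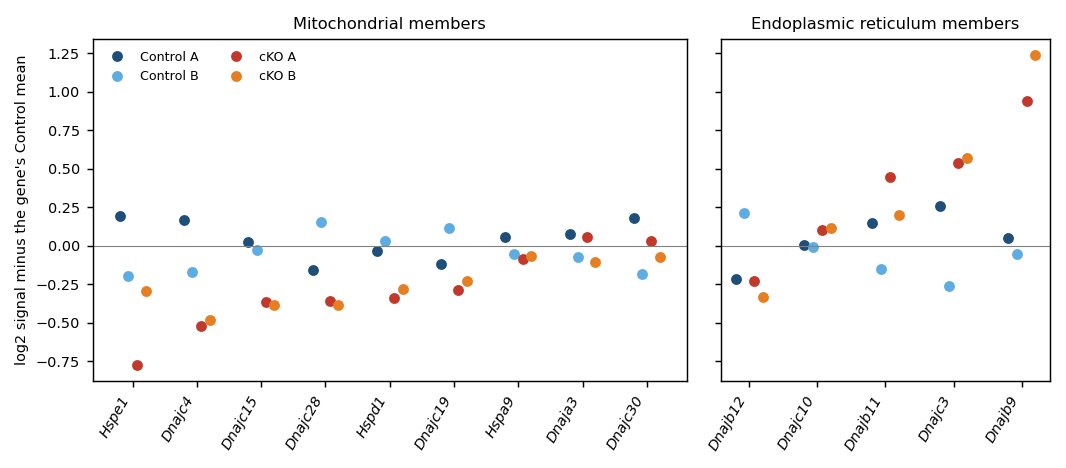
Log2 signal on each array, as the difference from the gene's mean in the Control lenses, for the 9 tested mitochondrial and the 5 tested endoplasmic reticulum members. Genes are ordered by log2 fold change. In the left panel the cKO points of 7 genes lie below both Control points, and in the right panel those of Dnajb9, Dnajc3, Dnajb11 and Dnajc10 lie above.

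Promoters were searched for the elements through which heat shock factors and the unfolded protein response act, in the 250 bases before each RefSeq transcription start (assembly GRCm38.p6). Of the 51 genes, 39 had a promoter in the table. The heat shock element was searched as GAANNTTC or TTCNNGAA, and as a longer form, in which a further unit (GAA or TTC in alternation) follows after any 2 bases, so that each longer match contains a shorter one. The longer form was found in 3 of the 39 genes (7.69%) and in 0.421% of the 8072 tested genes with a promoter. The chaperone genes that held it were Hspd1, Hspe1 and Dnajb6. The first pair share a stretch with 4 units in a row, printed below from each strand, and all 3 genes had negative log2 fold changes (-0.31, -0.54 and -0.08) and were not called. Capitals mark the match.
Hspd1, chr1:55088038-55088097, minus strand: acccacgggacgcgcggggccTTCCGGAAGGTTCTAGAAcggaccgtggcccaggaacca
Hspe1, chr1:55088038-55088097, plus strand: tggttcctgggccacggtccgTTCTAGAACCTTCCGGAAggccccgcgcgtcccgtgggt
Dnajb6, chr5:29735829-29735888, plus strand: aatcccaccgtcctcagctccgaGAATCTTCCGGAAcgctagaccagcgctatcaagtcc

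The shorter form was found in 7 of the 39 genes (17.9%), against 12.2% of the tested genes with a promoter, and among the called genes in Dnajc27 alone. The endoplasmic reticulum stress element, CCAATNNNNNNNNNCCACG on either strand, was found in Dnajc3 and in 0.124% of the tested genes.
Dnajc3, chr14:118937807-118937866, plus strand: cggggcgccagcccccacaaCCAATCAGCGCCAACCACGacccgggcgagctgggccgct

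The promoters of Dnajb1, Dnajb9 and Dnajc27 are shown because they are called genes with a window that held a motif. No heat shock element of either form lay in the windows of Dnajb1 (the first of its starts is printed), and neither the stress element above nor the unfolded protein response element TGACGTGG lay in that of Dnajb9. Capitals mark CCAAT boxes (CCAAT on either strand, held by 40.9% of the tested genes) in Dnajb1 and Dnajb9, and in Dnajc27 also the heat shock element and the cyclic AMP response element TGACGTCA, which 3.21% of the tested genes held. Neither window of Dnajb2 held a motif searched, and the TGATGNAA element of ATF4 lay in none of the 39 genes (2.34% of the tested genes). Dnajc12 had no promoter in the table. A match is a run of letters in these windows, and its absence says only that the letters are not there.
Dnajb1, chr8:83607925-83608174, plus strand: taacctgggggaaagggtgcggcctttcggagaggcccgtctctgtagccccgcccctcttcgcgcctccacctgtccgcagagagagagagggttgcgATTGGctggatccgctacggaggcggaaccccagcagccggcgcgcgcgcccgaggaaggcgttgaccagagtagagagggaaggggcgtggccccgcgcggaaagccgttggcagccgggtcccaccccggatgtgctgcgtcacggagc
Dnajb9, chr12:44210069-44210318, minus strand: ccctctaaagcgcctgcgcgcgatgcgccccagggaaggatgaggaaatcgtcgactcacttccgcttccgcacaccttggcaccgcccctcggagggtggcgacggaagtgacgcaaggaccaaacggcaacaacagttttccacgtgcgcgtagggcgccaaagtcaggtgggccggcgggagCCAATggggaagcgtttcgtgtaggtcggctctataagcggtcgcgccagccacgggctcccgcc
Dnajc27, chr12:4082324-4082573, plus strand: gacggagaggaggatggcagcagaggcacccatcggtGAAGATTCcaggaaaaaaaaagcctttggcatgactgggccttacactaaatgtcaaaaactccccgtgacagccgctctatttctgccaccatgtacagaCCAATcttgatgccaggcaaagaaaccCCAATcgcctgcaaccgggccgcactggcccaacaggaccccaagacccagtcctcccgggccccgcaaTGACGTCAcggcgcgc

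TRiC folds actin and tubulin, and its subunits occupy fixed places in the ring. All 9 genes were tested, among them Cct6b, a form of the Cct6 subunit known from testis, and 0 were called by limma (1 with an unadjusted p under 0.05). The values ran from -0.27 in Tcp1 to 0.39 in Cct4, with a median of 0.01. Cct4 had log2 signals of 10.27 and 10.31 in cKO lenses against 10.05 and 9.74 in Control A and B, and its interval was 0.02 to 0.77 (limma adjusted p = 0.140). Tcp1, the Cct1 subunit, had 8.98 and 8.83 against 9.32 and 9.03 (-0.65 to 0.10). Cct3, measured by 2 probes that gave 0.01 and 0.02, had log2 signals of 10.81 and 10.95 in cKO lenses and 10.83 and 10.90 in Control lenses, with an interval of -0.32 to 0.34. Cct6a had a log2 fold change of -0.05 (-0.37 to 0.27). Cct8 had 10.53 in Control A and 9.94 in Control B, with both cKO lenses between them, and a log2 fold change of 0.01 (-0.49 to 0.50). Cct5, Cct7 and Cct6b had log2 fold changes of 0.13, -0.11 and -0.10, and Cct5 and Cct6b were above background on 1 Control array each. Cct2 was above background only in the cKO lenses and passed the detection filter only through them. Its log2 fold change was 0.26 (-0.06 to 0.57), and -0.15 relative to all genes with the same median for each array. No direction is read from it.

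BAG proteins release the nucleotide from HSP70 and link it to degradation. Of 5 genes, 4 were tested and 0 were called by limma (1 with an unadjusted p under 0.05), with a median of -0.17. Bag4, which holds death receptors silent, had log2 signals of 7.05 and 7.14 in cKO lenses against 6.70 and 6.36 in Control A and B. Its log2 fold change of 0.57 (95% confidence interval 0.18 to 0.95) missed both thresholds (limma adjusted p = 0.0642), and without Control A, which leaves Control B alone with a spread assumed from the cKO lenses, it was 0.75 (adjusted p = 0.0417). Bag3, which acts with small heat shock proteins in the autophagy of aggregates, had 8.14 and 8.34 against 8.61 and 8.48, a log2 fold change of -0.30 (-0.65 to 0.04). The cKO values of Bag3 lay below the Control values. Bag1 and Bag5 were added after their values were seen. Bag1, which couples HSP70 to the proteasome, had 11.28 and 11.26 in cKO lenses against 11.54 and 11.53 in Control lenses, or -0.27 (-0.58 to 0.05), and Bag5 overlapped between the groups at -0.07 (-0.43 to 0.29). Relative to all genes the family median was -0.18 here and 0.09 when each array was given the same median, so that its sign depended on the scaling.

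The cochaperones around HSP70, HSP90 and TRiC were described from a list of 43 genes, of which 37 were tested. Of these, 2 were called elevated and 2 reduced (10.8%, against 11.6% of all genes), with a median of 0.03. Ahsa1, which activates the ATPase of HSP90, was reduced 2.13-fold. Its log2 signals were 8.49 and 8.30 in cKO A and B against 9.36 and 9.61 in Control A and B (log2 fold change -1.09 ± 0.16, SE, limma adjusted p = 0.0114). The adjusted p was 0.0843 without cKO B and 0.0615 without Control B, and the log2 fold change was -0.28 with the same median for each array (-0.81 relative to all genes). Sgtb, a scaffold that binds HSP70 and HSP90, had 6.28 and 6.16 against 6.93 and 7.06 (-0.78 ± 0.14, SE, adjusted p = 0.0203). Its call was lost without cKO A (adjusted p = 0.0709), cKO B (0.152) or Control B (0.0804), and its value was -0.09 with the same median for each array (-0.62 relative to all genes).

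Tomm34 and Vbp1 were the elevated cochaperones. Tomm34 binds HSP70 and HSP90 and helps mitochondrial precursors through the cytosol, and its log2 signals were 7.95 and 7.93 in cKO lenses and 7.13 and 7.13 in Control lenses (log2 fold change 0.81 ± 0.13, SE, limma adjusted p = 0.0158). The call of Tomm34 was lost without cKO A (adjusted p = 0.0724), cKO B (0.114) or Control B (0.0655). Vbp1 is a subunit of prefoldin, which brings actin and tubulin to TRiC. It had 5.79 and 6.24 in cKO lenses against 5.23 and 5.19 in Control lenses (0.81 ± 0.18, SE, adjusted p = 0.0353), and the adjusted p was 0.0676 when Control A was left out, 0.115 for Control B and 0.239 for cKO B. The call of Vbp1 was also lost in the deposited table with 16 added (0.77, adjusted p = 0.0546), without background correction (0.52, 0.0431) and with normexp at offset 50 (0.48, 0.0502). The other 33 cochaperones ran from -0.62 to 0.75.

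**Figure D5:**
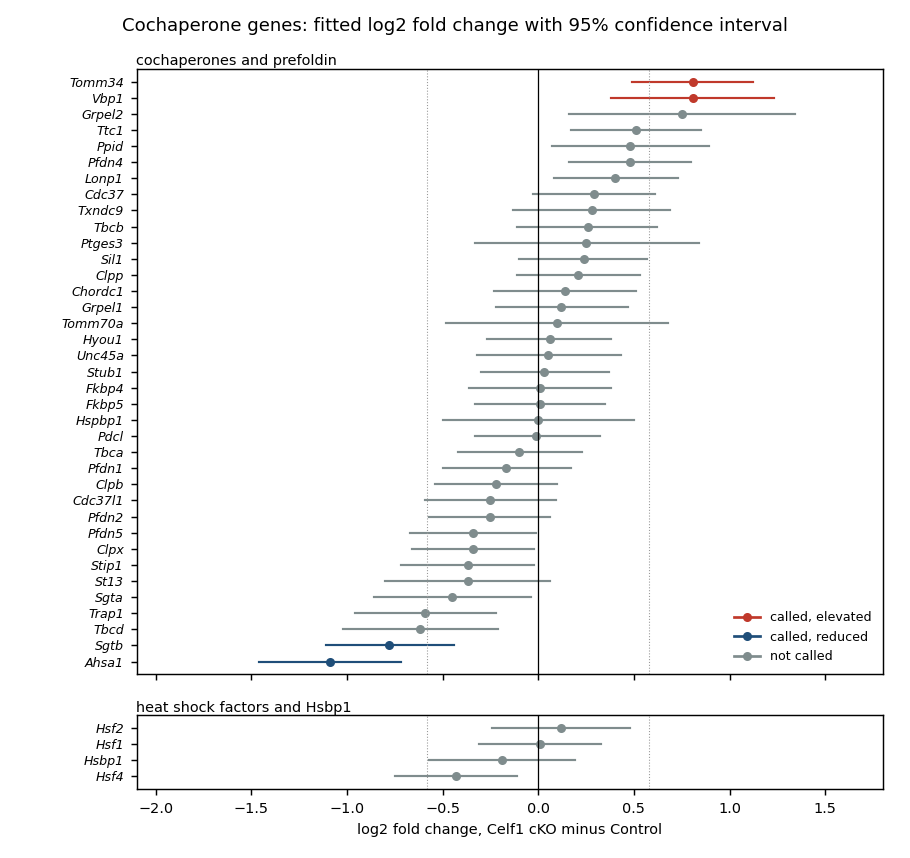
Fitted log2 fold change (Celf1 cKO minus Control, 2 arrays per group) with 95% confidence interval for the 37 tested cochaperones and, in the lower panel, 3 heat shock factors and the factor-binding Hsbp1. Tomm34 and Vbp1 were called elevated, Sgtb and Ahsa1 reduced, and dotted lines mark the fold threshold of 0.58.

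Heat shock factors switch chaperone genes on, and Hsf4 is the factor of the lens, where its loss causes cataract. Hsf4 had log2 signals of 10.90 and 10.97 in cKO A and B against 11.35 and 11.38 in Control A and B. Its log2 fold change was -0.43 (95% confidence interval -0.75 to -0.11, limma adjusted p = 0.0785). All cKO values of Hsf4 lay below the Control values, and the gene was not called, with a value of 0.32 (-0.21 relative to all genes) when each array was given the same median. Hsf1, the factor of the heat shock response, had 9.16 and 9.16 in cKO lenses against 9.19 and 9.12 in Control lenses (0.01, -0.31 to 0.33). Hsf2 was above background only in the cKO lenses and passed the detection filter only through them. It was not called, and no direction is read from it.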

How the data were processed

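Single lenses of Celf1 cKO (n = 2) and Control (n = 2) mice, taken on postnatal day 6, were hybridised to Illumina MouseWG-6 v2 arrays. The authors deposited scanner intensities per probe without normalization, with detection p-values, bead counts and bead standard errors of the signal, and a second table that is rank-invariant normalized per the file headers. The study's own edgeR test on array signal was not used. The deposited intensities were background-corrected with nec (detection p-values, offset 16), log2-transformed and quantile-normalized in limma 3.58.1 (R 4.3.3), which was tested on simulated data. Of 45281 probes, 18 lines with shifted cells were left out and 16262 probes with detection p under 0.05 on at least 2 of 4 arrays were averaged to 11516 genes. The mean of Dnajc16 includes a probe that carries another symbol in the files. Genotypes were compared with lmFit and eBayes, with Benjamini-Hochberg adjustment over all genes. The methods call each lens a biological replicate without saying that lenses came from different mice, so p-values measure only the spread between these samples. An exact permutation test of 2 against 2 cannot go below p = 0.333, and the number of arrays limits the precision. Detected probes per array were 14180 to 16925.

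The genes named were all called members and cochaperones, a fixed set of main chaperones and heat shock factors, and the 2 uncalled genes of largest absolute log2 fold change in each family, and others are marked where they appear. The members and lists were chosen with earlier results of these data known. Alternatives changed the table, background correction, scaling, detection filter, probe rule, fold threshold, replicate block and sample set. Replicate letters did not pair the samples (r = -0.011 between the A minus B differences of the genotypes). Symbols were updated through RefSeq tables (GRCm38.p6), with 8344 probes keeping the symbol of the file.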

Additional observations from a re-analysis of the deposited data

How the results depend on the processing

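The number of called chaperone genes (5) was 0 in the deposited normalized table when lower values were raised to 1, 1 without a detection filter, 26 with the same median for each array or no normalization between arrays, and 10 with the same median over probes detected on all 4 arrays, a scaling chosen after seeing the data. Those 3 scalings moved the median of all genes to 0.53, 0.57 and -0.19 on the log2 scale and the count of all called genes from 1341 to 5417, 5788 and 2690, with 97.3%, 97.7% and 24.8% elevated. The count of all called genes was 7 in the first table, 789 with normexp at offset 50 and 207 without the detection filter, and 593, 163 and 170 without cKO A, cKO B and Control B. The chaperone count was 0 to 7 with 1 sample left out: it was 7 when Control A was omitted, 3 for cKO A, 1 for cKO B and 0 for Control B. Each of the 5 kept its sign relative to all genes in every alternative in which it was fitted. Cochaperone calls (4) were 0, 1, 19, 20 and 8 under the same 5 settings in that order, 2 with normexp at offset 50, 7 with the replicate block and 0 to 6 with 1 sample left out (2 without cKO A, 0 without cKO B or Control B). The replicate block left 5 chaperone calls.

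Medians relative to all genes moved as follows. In the deposited table with the floor of 1 they were -0.39 for HSP90, 0.02 for DNAJA, 0.08 for DNAJB and -0.40 for the mitochondrial genes, and with 16 added in that table -0.00 for DNAJB. The 3 scalings differ only by a constant per array, so that values relative to all genes are the same in them by construction. Under each, the medians were -0.15 for the mitochondrial chaperonin, 0.08 for DNAJB, 0.15 for DNAJC, 0.09 for BAG and -0.10 for the mitochondrial genes. With detection on all 4 arrays they were -0.16 for DNAJA, 0.01 for DNAJC and -0.24 for the mitochondrial genes, and without a detection filter 0.02, 0.00 and -0.22. With the brightest probe they were -0.20 for DNAJA, 0.09 for DNAJB and 0.22 for DNAJC. The mitochondrial median was -0.22 without background correction and -0.18 with normexp at offset 50. With 1 sample left out, the medians ran from -0.11 to 0.02 for all chaperones, -0.13 to 0.23 for HSP70 and HSP110, -0.45 to -0.20 for HSP90, -0.54 to -0.27 for the mitochondrial chaperonin, -0.14 to -0.01 for DNAJA, -0.09 to -0.01 for DNAJB, 0.03 to 0.10 for DNAJC, -0.23 to -0.07 for BAG, and -0.36 to -0.21 for the mitochondrial genes.

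Celf1 was -1.52 (limma adjusted p = 0.0763) with the floor of 1 and -1.16 (0.0716) without a detection filter. It was -1.67 to -1.18 with 1 sample left out (-1.53 without Control B). With the same median for each array it was -0.64, and with no normalization -0.60, or -1.17 relative to all genes in both. With the same median for each array and with no normalization, where all genes shift by 0.53 and 0.57, 16 of the genes named by the rule turned positive (other genes were not listed): Cct6a (0.72 and 0.75), Hspa8 (0.65 and 0.69), Hspa9 (0.72 and 0.76) and Hsph1 (0.76 and 0.79), which were then called, and without a call Bag3 (0.52 and 0.56), Cct6b (0.11 and 0.14), Cct7 (0.23 and 0.26), Dnaja2 (0.38 and 0.42), Dnaja3 (0.48 and 0.52), Dnajb12 (0.50 and 0.54), Hsp90aa1 (0.18 and 0.22), Hsp90ab1 (0.48 and 0.52), Hspd1 (0.50 and 0.54), Hspe1 (0.26 and 0.30), Tcp1 (0.49 and 0.53) and Hsf4 (0.32 and 0.36). Other changes of sign among the genes named by the rule were in genes that were called in neither setting. With the same median over probes detected on all 4 arrays these were Cct2 (-0.34), Cct5 (-0.39), Hspa12b (-0.43), Hsf2 (-0.49) and Hsph1 (0.03). In the deposited table with the floor of 1 they were Cct3 (-0.06), Cct8 (-0.01) and Dnaja3 (0.19), with 16 added Cct3 (-0.06) and Cct8 (-0.01), without a detection filter Cct3 (-0.06), Dnaja3 (0.01) and Hsf1 (-0.03), and with the brightest probe Hspa8 (0.05). With 1 sample left out, the ranges that crossed 0 were -0.06 to 0.08 for Cct3, -0.12 to 0.39 for Cct5, -0.24 to 0.02 for Cct6b, -0.29 to 0.04 for Cct7, -0.28 to 0.31 for Cct8, -0.27 to 0.06 for Dnaja2, -0.11 to 0.07 for Dnaja3, -0.20 to 0.46 for Hspa12b, -0.26 to 0.14 for Hsph1, -0.03 to 0.05 for Hsf1 and -0.02 to 0.27 for Hsf2. Of 659 values for named genes, 520 kept their direction and side of the threshold and 62 changed sign, of which 32 fell under the scalings that shift all genes up and 24 of those 32 kept their sign relative to all genes. The cause of these changes was not tested. No fit with the slide as a block was run, since no slide is named in the files. Signal near background limits Cct2, Hsf2 and the untested Hspa1a and Hspa1b.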
